A study of Caenorhabditis elegans with 48 samples.

Results

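The insulin-like peptide genes of *Caenorhabditis elegans* were taken as every gene named *ins-* plus a number, together with *daf-28*, in the Ensembl annotation of the WBcel235 genome. This gave 39 genes of the 46911 counted in each library, all protein-coding. Their mRNA was followed in whole, starved L1 larvae of 4 strains, which hatched without food and were sampled at 36 h of arrest, or at 132 h after auxin or ethanol had been in the culture from 36 h onward. The somatic degron strain, *Peft-3::TIR1; ama-1::AID* (LRB389), carried a degron on AMA-1, the largest subunit of RNA polymerase II, and made the plant F-box protein TIR1 from the *eft-3* promoter, which is active in the soma. The germline degron strain, *Pgld-1::TIR1; ama-1::AID* (LRB387), carried the same tag with TIR1 made from the germline promoter of *gld-1*. The somatic TIR1 strain, *Peft-3::TIR1* (CA1200), and the germline TIR1 strain, *Pgld-1::TIR1* (CA1352), had the transgenes without the tag. Auxin (indole-3-acetic acid, 100 µM) lets TIR1 mark the tagged protein for degradation, and ethanol is its solvent. Each strain therefore had 3 groups (132 h with auxin, 132 h with ethanol, and 36 h with neither), with 4 libraries in each, or 48 in all. Every library came from a pool of many larvae, so fewer cells of a type and less RNA per cell could not be told apart. According to the labels the somatic degron strain grew more slowly than the others, and more adults of it were used to obtain embryos.

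Insulin-like peptides are small secreted proteins that bind DAF-2, the only insulin/IGF receptor of the worm, some as agonists and others as antagonists. When DAF-2 is active, a relay of PI3 kinase and AKT kinases keeps the transcription factor DAF-16/FOXO out of the nucleus. When DAF-2 signaling is low, as in starved L1 larvae, DAF-16 is active and supports arrest and survival. Most family members are made in neurons, and several also in intestine or hypodermis. *daf-28*, *ins-4* and *ins-6* are known as agonists that promote reproductive development, *ins-7* as an agonist made in the intestine, and *ins-1*, *ins-17* and *ins-18* as antagonists.

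None of the 39 genes was silent. Each had at least 1 count in the 48 libraries, and 31 had more than 10 counts in at least 4 libraries, the limit for testing. With the demand raised to at least 8 libraries, 24 were left. The 8 genes under the limit had few counts in any library, though the limit does not rank them all below every tested member. *ins-28* had a highest count of 17 in any library, and counts in 35 of 48 libraries. *ins-2* reached 16 counts, with counts in 24 libraries, and *ins-23* reached 18, with counts in 14. The other 5 were seen still less often: *ins-32* had counts in 11 libraries (at most 9), *ins-15* in 7 (at most 20), *ins-33* in 6 (at most 9), *ins-8* in 5 (at most 9) and *ins-9* in 4 (at most 3). Between 19 and 33 of the 39 genes had a count in any 1 library, so a 0 in a single library was common even for tested members. In 69 of the 468 combinations of gene and group, belonging to 23 genes, 1 library was at 0 while another of the same group had at least 10 counts.

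Levels across genes were compared per length, in TPM. It scales counts by exon length and to the same total over all annotated genes in each library, ribosomal RNA included. *ins-17* stood far above the rest, with a mean of 222.7 TPM over the 48 libraries, which was 48.6% of the summed mean TPM of the family. *ins-1* followed at 36.8 TPM, then *ins-27* at 26.1, *ins-30* at 23.2 and *daf-28* at 20.7. These 5 genes together made up 71.9% of the summed level. The plot of levels by gene shows the gap between *ins-17* and the others, and the long tail below it. Of the 39 genes, 30 averaged under 10 TPM and 12 of these under 1 TPM. *ins-17* was higher than *ins-1* in every group mean, where it ran between 118 and 357 TPM against 25.8 to 45.6 TPM for *ins-1*. The genes from rank 2 to rank 5 overlapped: group means were 12.1 to 43.9 TPM for *ins-27*, 10.1 to 37.4 TPM for *ins-30* and 8.23 to 30.1 TPM for *daf-28*.

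**Figure D1:**
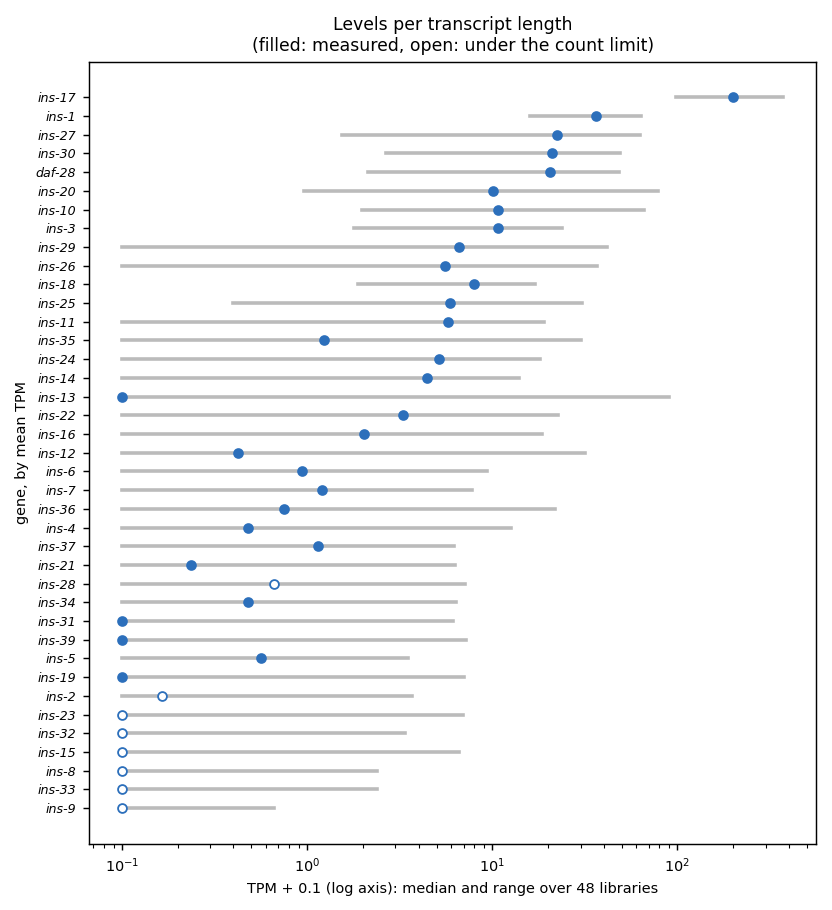
Level of each insulin-like peptide gene in TPM plus 0.1 on a log axis, as the median and range over 48 libraries, with genes ordered by mean TPM. *ins-17*, with a mean of 222.7 TPM, lies to the right of all others, and 12 genes average under 1 TPM.

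The genes lie on 6 chromosomes, 15 on II, 10 on I, 5 on III, 4 on IV, 3 on V and 2 on X. On chromosome I, 7 members lie in a stretch from 14012369 (start of *ins-28*) to 14037777 (end of *ins-26*), in the order *ins-28*, *ins-29*, *ins-25*, *ins-27*, *ins-24*, *ins-30* and *ins-26*. *ins-29* (WBGene00002112, 14018799 to 14019759) and *ins-25* (WBGene00002108, 14020361 to 14021312) are neighbors on the plus strand, 602 bases apart. On chromosome II, *ins-12* (WBGene00002095, 5554617 to 5555361, plus strand) lies 1370 bases before *ins-11*. *ins-13* (WBGene00002096, 5544512 to 5544864, minus strand) shares 87 bases of exon with *acdh-2*, an acyl-CoA dehydrogenase gene on the same strand, whose 3′ untranslated region runs into the first exon of *ins-13*. *ins-10* (WBGene00002093, chromosome V, 14033949 to 14034396, plus strand) shares 74 bases with *vps-39* on the other strand. The library kit did not mark strand, so reads from the shared bases of *ins-10* and *vps-39* cannot be told apart. How similar family members are in sequence, and how many reads could map to more than 1 of them, was not examined.

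The depth set what could be seen. Counts on genes ran from 5755041 to 18052333 per library (median 11040338), spike-ins from 1.13% to 8.33% and ribosomal RNA from 1.90% to 27.6%. In CPM, counts scaled to the same total on genes in each library, the whole family took 92.6 to 293, and 3 counts, the most that a count of 0 allows, were 0.166 to 0.521 CPM. These limits cover counting error only. Some libraries stood apart. The auxin library of replicate 4 in the somatic degron strain had the highest share of spike-ins (8.33%) and 1806 CPM of early embryo markers, against at most 387 CPM in any other library. The auxin library of replicate 2 in that strain had the highest share of ribosomal RNA (27.6%). Results that rest on these libraries are given below with and without them. The ethanol library of replicate 4 in the germline TIR1 strain also had a high share of spike-ins, 6.41% against a group median of 1.91%. Results scaled to the spike-ins in that strain are not given without it.

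Degradation of AMA-1 in the soma was the main comparison. In the somatic degron strain at 132 h, 7 of the 31 tested members rose with auxin against ethanol and 0 fell (edgeR's quasi-likelihood test, adjusted p under 0.05 over 15549 genes). The genes that rose were *ins-10*, *ins-12*, *ins-13*, *ins-20*, *ins-25*, *ins-29* and *ins-35*. That 0 fell holds for this fit, and members lower by CPM or without W1, a covariate described below, are given further on. Across all tested genes 13.3% rose and 16.1% fell. 6 of the 31 members (*ins-12*, *ins-13*, *ins-19*, *ins-21*, *ins-34* and *ins-39*) did not pass the limit for testing in the 40 libraries of neither group, so that they were tested only with the help of the libraries compared. Of the 25 members that passed the limit in those 40 libraries, 5 rose and 0 fell, against 12.9% and 16.8% of the genes that did so. At an unadjusted p under 0.05 there were 11 members (39.4% of all tested genes), and DESeq2 also had 0 members lower and 6 higher, without *ins-13*. The median fitted log2 fold change was 0.86 over the members and 0.11 over all tested genes. *ama-1* itself, whose mRNA is not the target of the degron, was at 999 ± 139 CPM in the auxin libraries and 454 ± 145 CPM in the ethanol libraries (SD, n = 4 each), a log2 fold change of 0.96 (adjusted p = 0.00402, edgeR).

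*ins-13* was counted in no other group. With auxin it had 176, 224, 78 and 82 counts in replicates 1 to 4, or 16.7, 17.3, 7.02 and 6.52 CPM, and it was at 0 counts in all 4 ethanol libraries and in each of the other 40 libraries. Taking 3 counts in each ethanol library as the floor, it was at least 43.7-fold higher with auxin on the CPM scale. Scaled to the spike-ins instead, the bound was 21-fold. It passed the limit for testing only through the 4 auxin libraries, so its adjusted p (0.00229, edgeR) is no independent support for the difference. The overlapping *acdh-2* moved with it. *acdh-2* averaged 173 ± 22.9 CPM in auxin libraries and 0.0998 ± 0.0900 CPM in ethanol libraries (SD, n = 4 each), a log2 fold change of 10.32 (SE 1.06, adjusted p = 4.52e-10, edgeR). The counts of *ins-13* were 9.61%, 8.73%, 3.93% and 4.57% of those of *acdh-2* in the 4 auxin libraries. At 36 h *acdh-2* had 49, 4, 17 and 10 counts in this strain and *ins-13* had 0. Whether reads of *acdh-2* transcripts were counted as *ins-13* was not tested. The call on *ins-13* was lost with DESeq2 (adjusted p = 0.413), with the replicate number as a block (adjusted p = 1) and without auxin replicate 2 (adjusted p = 0.198).

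*ins-12*, on the same chromosome as *ins-13*, had 5.59, 6.47, 4.59 and 2.39 CPM with auxin, against 0, 0.214, 0.0723 and 0.108 CPM with ethanol. The groups did not overlap, and the ethanol libraries held only 4 counts of it in all. The counts with auxin were 54.2 times those with ethanol per total count (95% counting interval 20.9 to 201). Its fitted log2 fold change was 7.28 (SE 2.11, adjusted p = 0.00658, edgeR), and without replicate 3 in all groups the adjusted p was 0.10. It was over the limit for testing in the 4 auxin libraries and in only 3 of the other libraries, so that it was tested only through the group where it was high, and this p too is no independent support. In the other 44 libraries it reached at most 1.88 CPM. The nearest gene upstream on the same strand is *C17C3.5*, 2282 bases away, chosen for mention after its values were seen. It averaged 96.2 ± 13.6 CPM in auxin libraries and 0.542 ± 0.821 CPM in ethanol libraries (SD, n = 4 each), a log2 fold change of 8.51 (adjusted p = 2.30e-06, edgeR). *ins-11*, which follows *ins-12* on the same strand, went the other way on the CPM scale, with 0.853, 1.16, 1.17 and 1.67 CPM with auxin and 3.24, 5.35, 3.90 and 2.92 CPM with ethanol, and it did not pass the test.

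*ins-29* and *ins-25*, the neighbors on chromosome I, both rose. *ins-29* had 5.68, 7.32, 9.45 and 6.28 CPM with auxin, against 0.0753, 1.39, 0 and 2.70 CPM with ethanol. Its log2 fold change was 4.24 (SE 0.97, adjusted p = 0.000593, edgeR). *ins-25* had 5.97, 6.17, 7.83 and 2.62 CPM with auxin, against 0.602, 0.962, 1.37 and 2.27 CPM with ethanol, a log2 fold change of 2.21 (SE 0.77, adjusted p = 0.0256, edgeR). For both, every auxin library lay above every ethanol library, with replicate 4 the closest pair for *ins-25*. The auxin libraries were near or above the 36 h level. At 36 h *ins-29* had 5.65, 2.73, 3.11 and 3.72 CPM and *ins-25* had 5.65, 2.90, 1.40 and 3.08 CPM. The call on *ins-25* was lost in 8 of 23 alternative settings (adjusted p between 0.00403 and 0.287).

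*ins-20* had 21.9, 20.8, 6.75 and 12.9 CPM with auxin, against 5.57, 1.50, 0.651 and 1.73 CPM with ethanol. The lowest auxin library lay above the highest ethanol library, and the log2 fold change was 2.84 (SE 0.77, adjusted p = 0.00394, edgeR). Without replicate 2 in all groups the adjusted p was 0.0691. *ins-10* had 13.3, 5.40, 9.0 and 19.6 CPM with auxin, against 3.91, 3.53, 1.23 and 5.51 CPM with ethanol. Here the groups overlapped slightly, at 5.40 CPM with auxin and 5.51 CPM with ethanol, and the log2 fold change was 2.15 (SE 0.66, adjusted p = 0.0111, edgeR). Without replicate 3 in all groups the adjusted p was 0.187. *vps-39*, which shares bases with *ins-10* on the other strand, averaged 73.4 ± 26.9 CPM in auxin libraries and 54.9 ± 12 CPM in ethanol libraries (SD, n = 4 each), and did not pass the test (adjusted p = 0.130, edgeR).

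*ins-35* was called higher on few counts. It had 0.284, 0.308, 1.53 and 0.159 CPM with auxin, against 0, 0, 0 and 0.540 CPM with ethanol, so that the groups overlapped. In all, 26 counts with auxin stood against 5 with ethanol. Its log2 fold change of 4.39 (SE 1.23, adjusted p = 0.00500, edgeR) was fitted with W1, a covariate estimated from the spike-ins, which averaged 0.226 in the auxin group and -0.100 in the ethanol group. Without W1 the log2 fold change was 2.27 and the adjusted p was 0.0676. Both values are far from the 36 h level of this gene, described further on.

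**Figure D2:**
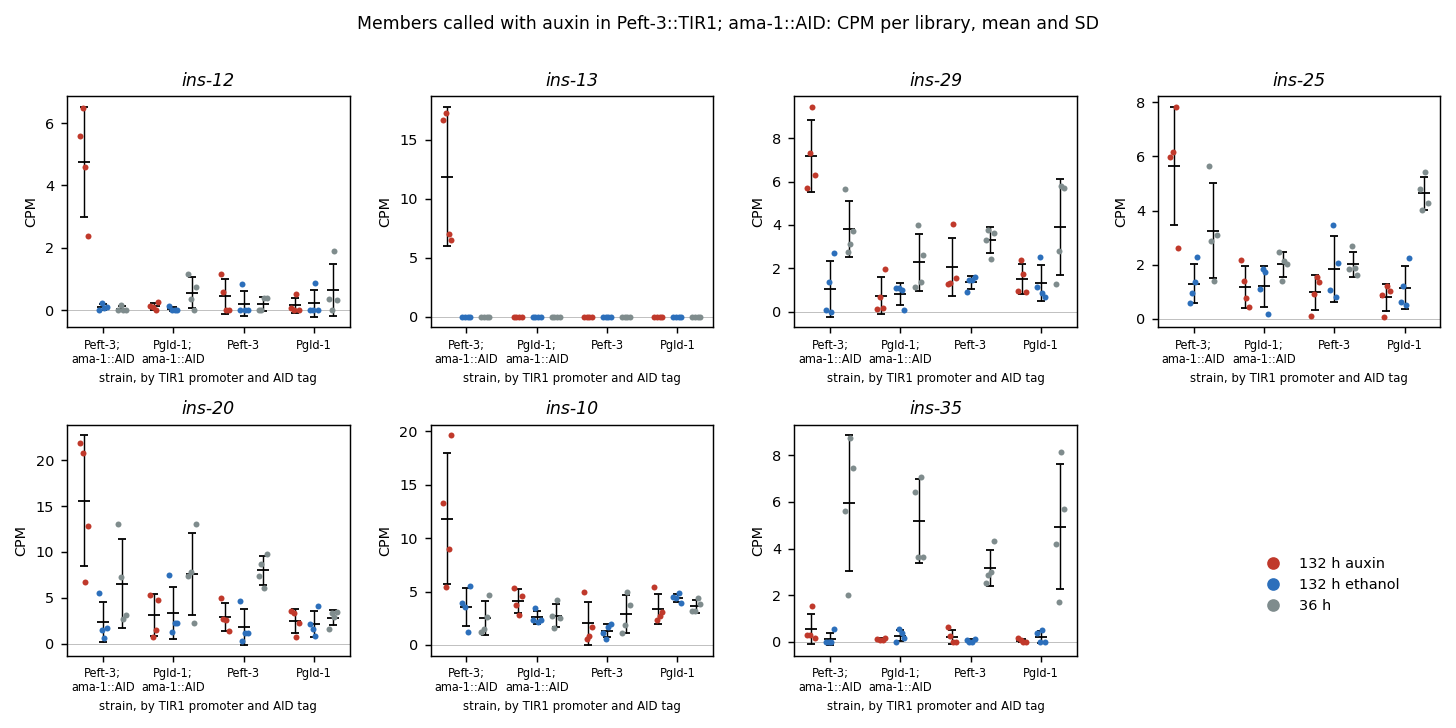
CPM of the members that passed the test in auxin against ethanol in the somatic degron strain, in all 12 groups, with 1 point per library and bars for the mean ± SD (n = 4). *ins-13* is above 0 only in the auxin group of that strain, and *ins-35* is highest in the 36 h groups.

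*daf-28* and *ins-17* were not called. *daf-28* had 5.49, 4.55, 2.88 and 4.37 CPM with auxin, against 12.9, 16.6, 2.75 and 23.7 CPM with ethanol. All auxin libraries lay below 3 of the 4 ethanol libraries, and replicate 3 with ethanol was as low as the auxin libraries. The log2 fold change was -1.01 (adjusted p = 0.204, edgeR), and it was -1.57 without W1 (adjusted p = 0.00846). In the other strains *daf-28* with auxin had 12.5 to 26.8 CPM (germline degron), 9.35 to 23.1 CPM (somatic TIR1) and 9.04 to 15.0 CPM (germline TIR1). *ins-17* had 118, 79.9, 120 and 91.0 CPM with auxin, against 70.7, 54.4, 90.7 and 90.5 CPM with ethanol, and these overlapped (log2 fold change 0.46, adjusted p = 0.104, edgeR). It passed the test without W1 (adjusted p = 0.0217) and with the replicate block (adjusted p = 0.0449).

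The other abundant members did not pass the test. *ins-1* had 34, 18, 23.7 and 15.9 CPM with auxin, against 22.4, 22.4, 12.1 and 36.3 CPM with ethanol. *ins-27* had 8.34, 4.16, 4.23 and 5.80 CPM with auxin, against 5.95, 4.81, 10.3 and 6.70 CPM with ethanol. *ins-30* had 14.1, 7.63, 8.55 and 5.41 CPM with auxin, against 16.9, 12.4, 5.64 and 24.3 CPM with ethanol. For all 3 genes the 2 groups overlapped (log2 fold changes 0.38, -0.26 and 0.12). *ins-26*, which neighbors *ins-30*, had 0, 0.771, 1.53 and 0 CPM with auxin, against 4.14, 2.03, 1.52 and 4.32 CPM with ethanol (log2 fold change -0.30, adjusted p = 0.872, edgeR), and without W1 the log2 fold change was -2.19 (adjusted p = 0.0774).

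By CPM alone, 7 of the 31 tested members had every auxin library above every ethanol library and 2 had every auxin library below, against 14.8% and 17.2% of all tested genes. The 7 were *ins-12*, *ins-13*, *ins-19*, *ins-20*, *ins-25*, *ins-29* and *ins-36*, and the 2 were *ins-11* and *ins-14*. *ins-36* and *ins-19* were rare transcripts, with 178 and 61 counts with auxin in all, against 7 and 1 counts with ethanol. In the other direction, *ins-14* had 8 counts with auxin in all against 90 with ethanol. *ins-22* had 4 against 31 and *ins-6* had 7 against 31, and none of these passed the main test. Of the 8 genes under the limit for testing, *ins-9* and *ins-15* had 0 counts in both groups, and the other 6 did not differ in an exact two-sided permutation test of CPM (p between 0.429 and 1, smallest possible p 0.0286).

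The scale of the comparison decided how many members counted as lower. Without W1, 9 members were higher and 2 lower, among 20.7% and 21.4% of all tested genes. With library sizes set by the spike-ins, which were added in proportion to total RNA, 52.4% of all tested genes were lower and 2.68% higher, and over all tested genes the median was -1.25 on the log2 scale. On that scale *ins-12*, *ins-13*, *ins-20* and *ins-36* were higher, and 9 members were lower: *daf-28*, *ins-1*, *ins-11*, *ins-14*, *ins-17*, *ins-22*, *ins-26*, *ins-27* and *ins-30*. The median over the members was -0.24. *ins-1*, *ins-17* and *ins-30* changed sign from the fit with W1 and passed the test as lower, at -1.26, -0.82 and -1.93. Of these, *ins-30* was already lower per total count. Without auxin replicate 4, the library with embryo markers, 8 members were higher, namely the called 7 and *ins-17*. Without auxin replicate 2, the library rich in ribosomal RNA, 5 were higher, without *ins-13* and *ins-25*. With all libraries of replicate 2 left out 4 members were higher, and with those of replicate 3 left out 3 were (*ins-13*, *ins-20* and *ins-29*).

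**Figure D3:**
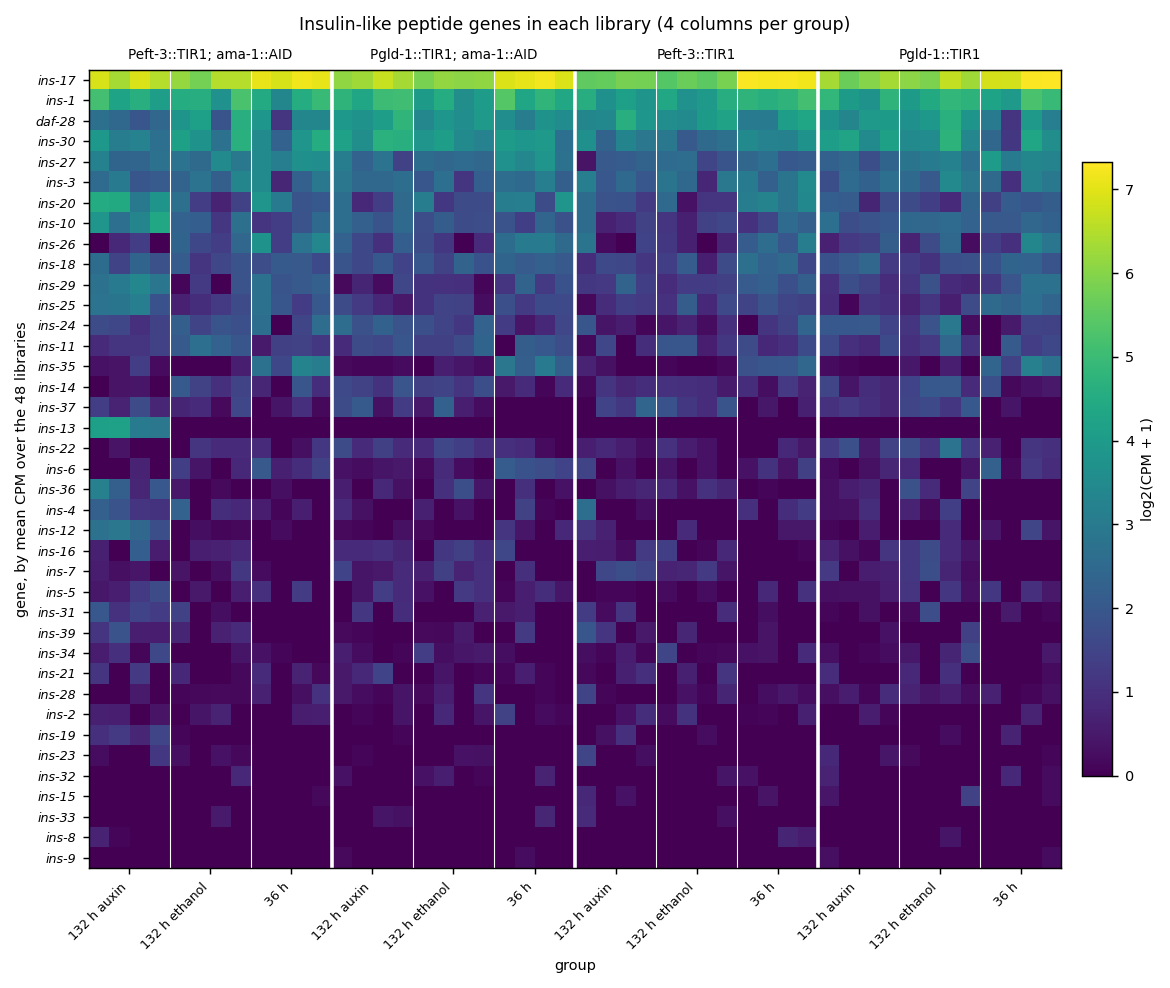
Heat map of log2(CPM + 1) for the 39 genes in each library, with genes ordered by mean CPM and 4 columns per group. *ins-17* is bright throughout and brightest at 36 h, and *ins-13* appears only in the auxin columns at the far left.

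In the other 3 strains no member passed the test with auxin. With edgeR's quasi-likelihood test 0 members passed in the germline degron, the somatic TIR1 or the germline TIR1 strain, where 0% of all tested genes passed as higher or as lower. At an unadjusted p under 0.05 there were 1, 1 and 0 members (1.48%, 4.63% and 3.23% of all tested genes), and DESeq2 had 0 members as well. *ins-27* in the germline TIR1 strain was the only member whose auxin libraries all lay below the ethanol libraries, against 1.21% of all tested genes. In the germline degron and somatic TIR1 strains 0.437% and 0.765% of all tested genes did so and 0 members. The auxin libraries all lay above for 0 members in the 3 strains, and for 1.57%, 1.39% and 0.978% of all tested genes. The effect of auxin in the somatic degron strain was then set against that in the somatic TIR1 strain as an interaction. *ins-25* (difference of log2 fold changes 3.13, SE 1.00, adjusted p = 0.0192, edgeR) and *ins-29* (3.57, SE 1.16, adjusted p = 0.0225, edgeR) passed, among 8.31% of all tested genes with a positive and 12.5% with a negative difference. In the somatic TIR1 strain *ins-25* had 0.106, 0.923, 1.56 and 1.35 CPM with auxin, against 1.06, 3.48, 0.809 and 2.06 CPM with ethanol. *ins-29* had 1.28, 1.34, 4.04 and 1.55 CPM with auxin, against 0.893, 1.47, 1.44 and 1.60 CPM with ethanol in that strain. Both genes overlapped between the groups there.

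For the other 5 genes that rose with auxin the difference between the strains did not pass, with adjusted p of 0.0778 for *ins-12*, 0.139 for *ins-20*, 0.227 for *ins-10*, 0.459 for *ins-35* and 1 for *ins-13*. The last could not be fitted with a usable error, because 3 of the 4 groups were at 0. A difference between the strains was therefore called for *ins-25* and *ins-29* only. It passed in 19 of 23 alternative settings for *ins-25* (adjusted p between 0.00568 and 0.228) and in 14 of 23 for *ins-29* (adjusted p between 0.00303 and 0.512). The same interaction for the germline strains had 0 members at an adjusted p under 0.05 and 0 at an unadjusted p under 0.05 (0% and 3% of all tested genes, edgeR), and 0 with DESeq2.

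Time in arrest was the other axis of the design. In the main fit, more members fell than rose between 36 h and 132 h with ethanol in each of the 4 strains (edgeR's quasi-likelihood test). With spike-in library sizes, given below, members lower did not outnumber members higher in any strain. In the somatic degron strain 5 fell and 2 rose, against 15.1% and 15.2% of all tested genes. In the germline degron strain 8 fell and 1 rose (17.1% and 17%). In the somatic TIR1 strain 12 fell and 2 rose (23.9% and 20.5%), and in the germline TIR1 strain 7 fell and 4 rose (19.4% and 18.8%). These counts are out of 31 tested members, so falls in the somatic degron and germline TIR1 strains were close to the share of all tested genes. The falls include *ins-35*, which was tested only through 36 h libraries. The median log2 fold change over the members was -0.62, -0.59, -0.76 and -0.30 in the 4 strains, while over all tested genes it lay between -0.11 and -0.00. *ins-17*, *ins-26*, *ins-29* and *ins-35* fell in all 4 strains. The calls on *ins-26* and *ins-29* were less firm. *ins-26* passed in 9 of 15 alternative settings in the germline TIR1 strain (adjusted p up to 0.337), and *ins-29* in 10 of 15 in the germline degron strain (adjusted p up to 0.577) and in 11 of 15 in the somatic TIR1 strain (adjusted p up to 0.464). Without replicate 2 the members lower in the somatic degron strain were 3, and without replicate 4 the germline TIR1 strain had 3 lower and 2 higher.

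*ins-35* fell in all 4 strains to a few counts per group. Of the 17 libraries in which it was over the limit for testing, 16 were 36 h libraries. The gene was thus tested only through the time at which it was high, and its p-values are no independent support for a fall. At 132 h with ethanol it had 0, 0, 0 and 0.540 CPM in the somatic degron strain, against 5.59, 2.01, 8.72 and 7.44 CPM at 36 h (log2 fold change -7.38, SE 1.11, adjusted p = 5.33e-07, edgeR). In the germline degron strain it had 0, 0.539, 0.365 and 0.172 CPM, against 6.43, 3.65, 7.06 and 3.62 CPM at 36 h. In the somatic TIR1 strain it had 0.0812, 0, 0 and 0.114 CPM, against 2.53, 2.89, 2.98 and 4.32 CPM at 36 h. The groups did not overlap in any of these strains. In the germline TIR1 strain *ins-35* had 0.383, 0, 0.519 and 0 CPM, against 4.21, 1.73, 8.15 and 5.69 CPM at 36 h, also without overlap. The log2 fold changes in the last 3 strains were -5.74, -7.55 and -5.80. The gene (WBGene00002118, chromosome V, 20375536 to 20376302) encodes a peptide known to act in the intestine, and in the somatic degron strain it stayed at or below 1.53 CPM at 132 h with auxin as well.

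*ins-17* (WBGene00002100, chromosome III, 4476918 to 4477572), the most abundant member and an antagonist of DAF-2, also fell in every strain. At 132 h with ethanol it had 70.7, 54.4, 90.7 and 90.5 CPM in the somatic degron strain, against 135, 118, 143 and 132 CPM at 36 h. In the germline degron strain it had 56.4, 69.3, 65.7 and 68.6 CPM, against 121, 132, 147 and 119 CPM at 36 h. The largest difference was in the somatic TIR1 strain, with 41.3, 50.2, 43.8 and 56.9 CPM, against 156, 148, 152 and 143 CPM at 36 h. The 36 h libraries lay above the 132 h libraries without overlap in each of these strains. In the germline TIR1 strain it had 65.5, 57.7, 100 and 76.4 CPM, against 114, 114, 156 and 160 CPM at 36 h, again without overlap. Its log2 fold changes were -1.17 (SE 0.19, adjusted p = 3.37e-06), -1.40, -2.12 and -1.38 (the 3 others with adjusted p at or below 5.93e-08, edgeR). Only *ins-17* and *ins-35* were below the 36 h libraries without overlap in all 4 strains, against 5.9% of all tested genes.

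*ins-29* fell to 1.09, 1.08, 1.00 and 0.0860 CPM at 132 h with ethanol in the germline degron strain, against 1.14, 4.00, 1.35 and 2.60 CPM at 36 h, and to 0.893, 1.47, 1.44 and 1.60 CPM in the somatic TIR1 strain, against 3.32, 3.78, 2.43 and 3.64 CPM. In the germline TIR1 strain the libraries overlapped, with 1.15, 2.54, 0.866 and 0.690 CPM, against 1.29, 2.82, 5.78 and 5.69 CPM at 36 h. The somatic degron strain is given above, and the log2 fold changes of *ins-29* ran from -3.25 to -2.27 (adjusted p between 0.00233 and 0.0102, edgeR). *ins-26* (chromosome I, 14037151 to 14037777) showed a like pattern with wider scatter. At 132 h with ethanol it had 2.19, 1.29, 0 and 0.860 CPM in the germline degron strain, against 5.08, 7.12, 6.90 and 4.83 CPM at 36 h, and 1.30, 0.549, 0 and 0.685 CPM in the somatic TIR1 strain, against 3.38, 5.18, 2.98 and 7.48 CPM. In the somatic degron strain it had 4.14, 2.03, 1.52 and 4.32 CPM, against 12.63, 1.53, 5.92 and 9.46 CPM at 36 h, and in the germline TIR1 strain 0.638, 2.18, 4.50 and 0.173 CPM, against 1.52, 0.975, 9.33 and 6.35 CPM. The first 2 strains did not overlap and the last 2 did (log2 fold changes -4.86 to -2.51, adjusted p between 0.000252 and 0.0290, edgeR).

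Other members fell in some strains and were not called in others, and the differences between strains were not tested. *ins-1*, *ins-3*, *ins-18*, *ins-20* and *ins-27* passed in 2 strains each. *ins-20* passed in the germline degron strain too with the replicate block (log2 fold change -1.54, adjusted p = 0.0415, edgeR). *ins-1* fell by a fitted 1.34 on the log2 scale in both the germline degron and the somatic TIR1 strain. Per total count it was at 0.576 and 0.625 times its 36 h counts there, a smaller fall, and its libraries overlapped in the germline degron strain. *ins-18*, an antagonist, fell by 1.45 in the somatic TIR1 and by 1.33 in the germline TIR1 strain. *ins-4*, *ins-10*, *ins-24* and *ins-30* passed in the somatic TIR1 strain alone, *ins-12* in the germline degron strain and *ins-25* in the germline TIR1 strain. For *ins-4* all 132 h ethanol libraries of the somatic TIR1 strain were at 0, which made it at least 3.00-fold lower than at 36 h.

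The members that rose with time were rare transcripts that were at or near 0 at 36 h. The limit for testing was exceeded in 0 libraries at 36 h for *ins-7*, *ins-31*, *ins-36* and *ins-39*, and in 1 for *ins-16* and *ins-37*. They were therefore tested through 132 h libraries, and these calls are no independent support for a rise. *ins-7*, the intestinal agonist, had 0.650, 0.733, 1.35 and 0.343 CPM at 132 h with ethanol in the somatic TIR1 strain and 0 in all 4 libraries at 36 h, at least 3.10-fold higher. In the germline TIR1 strain it was at least 4.03-fold higher, at 1.28, 2.42, 0.692 and 0.173 CPM against 0 in all 4 libraries at 36 h. *ins-36* rose in both strains without the tag, *ins-37* in the 2 strains with the *gld-1* promoter, *ins-16* in the germline TIR1 strain, and *ins-31* and *ins-39* in the somatic degron strain. Against 36 h groups at 0, these were at least 2.03-fold (*ins-31*), 2.21-fold (*ins-39*), 3.71-fold (*ins-37*, germline degron), 4.12-fold (*ins-16*) and 4.60-fold higher (*ins-36*, germline TIR1). With the limit raised to more than 50 counts in at least 4 libraries, 0 members rose in any strain, because these genes were no longer tested. The 2 rises in the somatic degron strain and the 2 in the somatic TIR1 strain were also lost without replicate 3, and with the replicate block *ins-31* was at an adjusted p of 0.0501.

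*daf-28*, the agonist best known for control of larval arrest, was not called with time in any strain (adjusted p between 0.307 and 0.992, edgeR). At 132 h with ethanol it had 9.44 to 14.7 CPM in the germline degron, 10.4 to 17.8 in the somatic TIR1 and 11.9 to 24.2 in the germline TIR1 strain, against 7.65 to 12.2, 6.97 to 18.7 and 1.19 to 14.6 CPM at 36 h. The ranges overlapped in each strain.

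**Figure D4:**
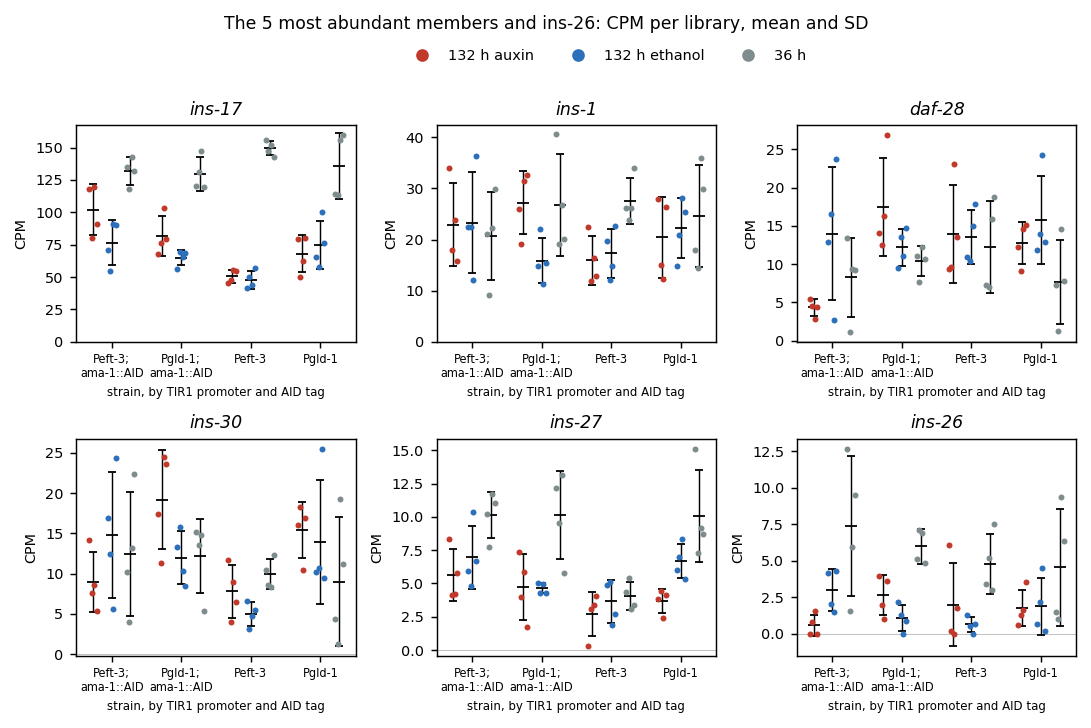
CPM of the 5 members with the highest mean TPM in all 12 groups, with 1 point per library and bars for the mean ± SD (n = 4). *ins-17* is higher at 36 h than at 132 h in every strain, while most groups of *ins-1*, *ins-27*, *ins-30* and *daf-28* overlap. At 132 h with ethanol, *ins-1* and *ins-30* in the somatic TIR1 strain and *ins-27* in the germline degron strain lie below 36 h without overlap.

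The fitted changes with time depend on the scale. W1 in these fits averaged 0.112, 0.122, 0.0900 and 0.0535 at 36 h in the 4 strains. At 132 h with ethanol it averaged -0.100, -0.0627, -0.0934 and -0.0185. Per total count, *ins-17* at 132 h with ethanol was at 0.585, 0.503, 0.315 and 0.524 times its 36 h counts, smaller falls than those fitted. CPM are set by the total, to which a few very abundant genes contribute, and by CPM more of all tested genes lay above their 36 h libraries without overlap (26.2%, 28.9%, 30.7% and 31.8% in the 4 strains) than below (8.98%, 10.9%, 14.3% and 9.16%). Members without overlap by CPM were 1, 3, 3 and 4 above and 3, 6, 7 and 4 below. With spike-in library sizes the median change with time over all tested genes was 0.46 to 0.85 on the log2 scale. There 3.38%, 4.01%, 6.07% and 5.66% of all tested genes were lower in the somatic degron, germline degron, somatic TIR1 and germline TIR1 strain, and 31.8%, 30%, 35.4% and 19.4% higher. The values of the germline TIR1 strain include its ethanol library with 6.41% spike-ins. On that scale *ins-35* was lower in all 4 strains and *ins-17* in the 2 strains without the tag, and 1, 1, 3 and 3 members were lower and 3, 1, 5 and 5 higher. In the somatic degron and germline degron strains *ins-17* kept its direction relative to the spike-ins, with log2 fold changes of -0.35 (adjusted p = 0.467, edgeR) and -0.64 (adjusted p = 0.160, edgeR), and did not pass the test.

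In the somatic degron strain, 132 h with auxin was also set against 36 h, a comparison that shares its 36 h libraries with the one above. There 8 members rose (*ins-10*, *ins-12*, *ins-13*, *ins-16*, *ins-19*, *ins-31*, *ins-36*, *ins-39*) and 6 fell (*ins-6*, *ins-14*, *ins-17*, *ins-26*, *ins-27*, *ins-35*), against 23.8% and 24.2% of all tested genes (edgeR). Among those that rose, *ins-12*, *ins-13*, *ins-19* and *ins-39* passed the limit for testing only with the help of the auxin libraries. Their calls are no independent support for a rise. Among those that fell, *ins-6* was over the limit in 14 libraries, 12 of them at 36 h, and *ins-35* in 17, 16 of them at 36 h. Both were tested only through the time at which they were high, so their calls are no independent support for a fall. The log2 fold change was 1.95 for *ins-10*, -0.72 for *ins-17* and -2.99 for *ins-35*. *ins-20*, *ins-25* and *ins-29*, which differed between auxin and ethanol at 132 h, did not pass against 36 h. Without replicate 4, 3 members fell.

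The tagged and untagged strains were compared at 36 h, before any auxin. Between the somatic degron and the somatic TIR1 strain 0 members passed the edgeR test, 2 had an unadjusted p under 0.05 (7.86% of all tested genes) and DESeq2 had 0, where 0.167% of all tested genes were higher and 0.0579% lower. *ins-27* had 7.72 to 11.7 CPM in the somatic degron strain and 3.06 to 5.38 CPM in the somatic TIR1 strain at 36 h. These did not overlap, as was so for 2.78% of all tested genes in that direction and 1.67% in the other, and the adjusted p was 0.264.

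**Figure D5:**
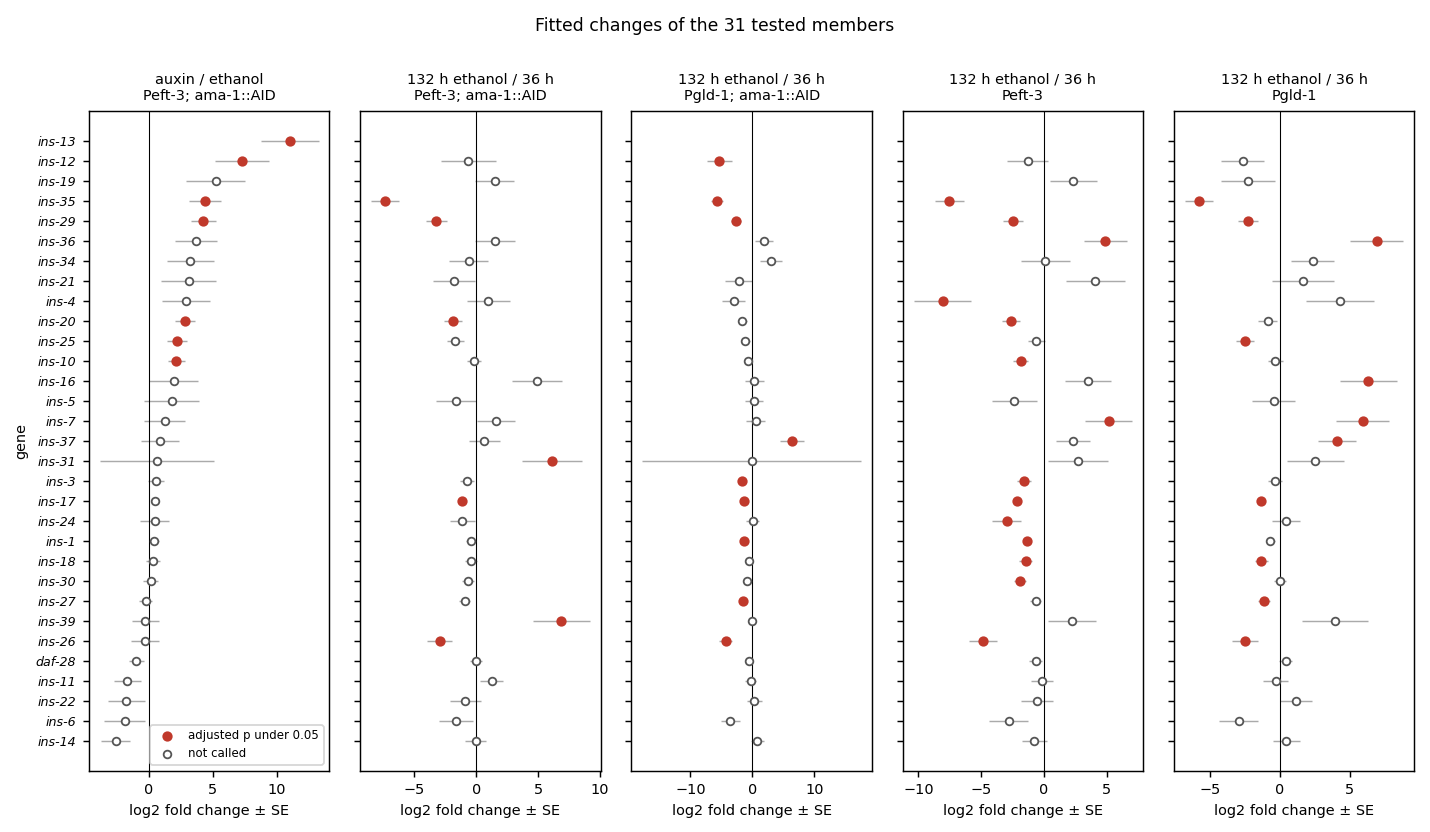
Fitted log2 fold changes ± SE of the tested members for auxin against ethanol in the somatic degron strain and for 132 h with ethanol against 36 h in the 4 strains, filled where the adjusted p was under 0.05. *ins-13* and *ins-19* are left out where both groups were at or near 0. Filled points lie right of 0 for auxin (7 members) and mostly left of 0 for time.

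Some members varied together between libraries of the same group. Over the 72 pairs of libraries within groups, *ins-1* and *ins-30* differed in the same direction in 60 (83.3%), *ins-1* and *ins-3* in 57, *daf-28* and *ins-1* in 55 and *daf-28* and *ins-3* in 54, where an even split would be 36. At 36 h replicate 2 was low for this group of genes in 2 strains: *daf-28* was at 1.13 CPM in the somatic degron and 1.19 CPM in the germline TIR1 strain, and *ins-30* at 3.94 and 1.30 CPM. *daf-28* and *ins-30* did so in 47. *ins-27* went with *ins-30* in 48 of the 72 pairs, with *ins-3* in 37, with *ins-1* in 36 and with *daf-28* in 35. The summed level of 11 neuron markers went with *ins-1* in 50 pairs, with *ins-30* in 50, with *daf-28* in 49, with *ins-27* in 44 and with *ins-3* in 41. These counts describe libraries that share depth and handling, and the pairs are not independent.

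Genes that process and release peptides were examined as a list: 11 genes, all tested, among them the proprotein convertase *egl-3*, the carboxypeptidase *egl-21* and *unc-31*, needed for dense core vesicle release. With auxin against ethanol in the somatic degron strain 2 rose (*unc-31*, log2 fold change 1.17, and *asna-1*, 0.70) and 1 fell (*bli-4*, a convertase, -1.15), where 13.3% and 16.1% of all tested genes did so. With spike-in library sizes 0 were higher with auxin and 9 lower, against 2.68% and 52.4%. With time 7, 8, 8 and 8 of the 11 fell in the 4 strains, against 15.1%, 17.1%, 23.9% and 19.4% of all tested genes. *egl-21*, *sbt-1*, *kpc-1*, *aex-5*, *unc-31*, *ida-1* and *asna-1* fell in all 4, and *bli-4* rose in the 2 tagged strains. With spike-in library sizes 1, 1, 1 and 2 of the 11 were lower with time, against 3.38%, 4.01%, 6.07% and 5.66% of all tested genes, and only *aex-5*, a convertase, was so in all 4. In the somatic degron strain *unc-31* averaged 63.1 ± 11.9 CPM at 132 h with ethanol and 91.5 ± 10.5 CPM at 36 h (SD, n = 4 each).

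The receptor and its relay formed a list of 13 genes, all tested. With auxin in the somatic degron strain 3 rose and 1 fell, where 13.3% and 16.1% of all tested genes did so. *daf-2*, the receptor, averaged 433 ± 96.3 CPM in auxin libraries and 280 ± 41.3 CPM in ethanol libraries (SD, n = 4 each), a log2 fold change of 0.71 (adjusted p = 0.00861, edgeR). *par-5*, a 14-3-3 protein, rose by 0.39 on the log2 scale, and *ftt-2*, the other 14-3-3 protein, fell by 1.13. With spike-in library sizes 0 of the list were higher with auxin and 10 lower, *par-5* among them and *daf-2* not, against 2.68% and 52.4% of all tested genes. With time 8, 7, 8 and 8 genes fell, against 15.1%, 17.1%, 23.9% and 19.4% of all tested genes, with *daf-2*, *ist-1*, *akt-1*, *sgk-1*, *par-5* and *daf-16* in all 4 strains, and *ftt-2* rose in all 4. The log2 fold change of *daf-2* was -1.01, -1.14, -1.34 and -1.20. With spike-in library sizes 0, 0, 0 and 1 of the 13 were lower with time and 3, 3, 4 and 1 higher, against 3.38% to 6.07% and 19.4% to 35.4% of all tested genes. The gene that was lower was *ist-1*, in the germline TIR1 strain, so that the fall of *daf-2* and the others was not called relative to the spike-ins.

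Of 10 genes known as targets of DAF-16, 9 were tested. With auxin in the somatic degron strain *hsp-12.6*, a small heat shock protein, averaged 67.1 ± 8.46 CPM, against 3.32 ± 3.5 CPM with ethanol (SD, n = 4 each), and rose by 3.32 on the log2 scale. In the same comparison, where 13.3% of all tested genes rose and 16.1% fell, 4 others fell: *mtl-1* (log2 fold change -0.99), *ctl-2* (-2.30), *gpd-2* (-0.82) and *fat-5* (-8.31). *fat-5*, a fatty acid desaturase, averaged 0.713 ± 1.02 CPM in auxin libraries and 258 ± 79.1 CPM in ethanol libraries (SD, n = 4 each). With time 3, 5, 6 and 5 of them fell, against 15.1%, 17.1%, 23.9% and 19.4% of all tested genes, with *dod-3*, *hsp-12.6* and *ftn-1* in all 4 strains, and *fat-5* rose in all 4. With spike-in library sizes *dod-3* and *hsp-12.6* were still lower in all 4 strains, *ftn-1* in the somatic TIR1 strain alone, and *fat-5* was higher in all 4. In the other 3 strains 0 genes of these 3 lists passed with auxin (edgeR).

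Summed levels of marker genes are given for 3 tissues. The 11 of 12 neuron markers found summed to 2335 to 3257 CPM with auxin and 2011 to 2878 CPM with ethanol in the somatic degron strain, against 1817 to 2505 CPM at 36 h, and all 3 groups overlapped. The 9 of 10 intestine markers found summed to 2167 to 3804 CPM with auxin, against 1251 to 1675 CPM with ethanol and 12810 to 16121 CPM at 36 h. In the other 3 strains they summed to 697 to 1816 CPM at 132 h with ethanol, against 11488 to 17908 CPM at 36 h. The 8 markers of body wall muscle summed to 1564 to 2485 CPM with auxin, against 3828 to 5661 CPM with ethanol and 12990 to 20526 CPM at 36 h in the somatic degron strain. None of the markers found was at 0 in all libraries. The part of these shifts in the changes of *ins-35*, *ins-7* and the other members was not tested.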

How the data were processed

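The authors extracted total RNA from pooled larvae, added ERCC spike-ins by total RNA, selected poly-A RNA, prepared libraries with a kit that does not mark strand, and sequenced read pairs. The pairs were mapped with Bowtie 1.2.2 to the WS273 genome and the spike-ins, and counted per gene with HTSeq 0.11.2, and edgeR 3.24.4 is also named in the submitters' processing notes. The deposited values are raw counts per gene and library, 46911 genes and 92 spike-ins in each. Groups and replicate numbers came from the labels, which do not say that a number marks the same batch in different groups. Pairs on no feature (1.08% to 5.07% of gene counts) and ambiguous pairs (3.21% to 8.45%) were left out. Symbols, positions and exon lengths came from Ensembl WBcel235, in which 46857 gene identifiers were found.

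The 15549 protein-coding genes in which 4 or more libraries exceeded 10 counts were fitted together over the 48 libraries with edgeR 4.0.16 (R 4.3.3, limma 3.58.1), with upper-quartile scaling, the 12 groups and W1. W1 is 1 factor of unwanted variation estimated from the 62 spike-ins that passed the same limit. The authors' likelihood ratio test was replaced by the quasi-likelihood test, and p-values were adjusted by Benjamini-Hochberg over all tested genes, with a threshold of 0.05. CPM are scaled to the total on genes, and TPM are over all annotated genes, of every biotype, with the union exon length. Genes under the limit were compared by exact permutation tests of 4 libraries against 4. The model was tested on simulated counts. Alternatives were TMM or upper-quartile scaling without W1, spike-in library sizes, the likelihood ratio test, DESeq2 1.42.0, other limits on counts, all biotypes, only the groups compared, a replicate block, and leaving out replicates or single libraries of the somatic degron strain.

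For auxin against ethanol in the somatic degron strain, values in every library are given for a set of members. These were called there or in the interaction, were called with time in at least 3 strains, or were among the 5 members with the highest mean TPM. With time, values in every library of all strains are given for those called in at least 3 strains. Other comparisons and members are mostly given by counts, ranges or fitted changes. Members outside the set named with values were chosen after their values were seen. The members, gene lists and tests were chosen with earlier results of these data known. The values of 1 gene of the receptor and relay list are not reported here. The replicates were separate samples, and p-values of the main fit rest on a spread between libraries that was estimated over all 12 groups. The replicate number was not part of that fit.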

Additional observations from a re-analysis of the deposited data

Results flagged for a closer look

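In 14 of 156 combinations of a named member and a group, 1 library stood far from the other 3 by a test of the gap. The rate of about 1 in 20 from chance alone does not hold where the other 3 libraries are at 0. Any count passes there, as for *ins-12* and *ins-35* in some groups below, so the 14 cannot be set against that rate. *ins-12* had 0.161 CPM in replicate 2 at 36 h in the somatic degron strain, 0.137 CPM in replicate 1 with ethanol in the germline degron strain, 0.824 CPM in replicate 2 with ethanol in the somatic TIR1 strain, and 0.516 CPM (auxin) and 0.866 CPM (ethanol) in replicate 3 of the germline TIR1 strain, with 0 to 0.0745 CPM in the other libraries of those groups. *ins-35* had 1.53 CPM in auxin replicate 3 and 0.540 CPM in ethanol replicate 4 of the somatic degron strain, with 0.159 to 0.308 and 0 CPM in the others. The call on *ins-35* with auxin was lost without auxin replicate 3 (adjusted p = 0.0539, edgeR).

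In the germline degron strain with ethanol, *ins-20* was at 7.52 CPM in replicate 1 (others 1.29 to 2.28), *ins-10* at 3.45 CPM in replicate 2 (others 2.19 to 2.33) and *ins-29* at 0.0860 CPM in replicate 4 (others 1.00 to 1.09). *ins-30* was at 5.39 CPM in replicate 4 at 36 h in that strain (others 13.6 to 15.1). *ins-29* was at 4.04 CPM in auxin replicate 3 of the somatic TIR1 strain (others 1.28 to 1.55). In the germline TIR1 strain with ethanol, replicate 3 was high for both *ins-30* (25.4 CPM, others 9.40 to 10.7) and *daf-28* (24.2 CPM, others 11.9 to 13.9).

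The effect of auxin differed between the somatic degron and the somatic TIR1 strain for *ins-25* (difference of log2 fold changes 3.13, adjusted p = 0.0192, edgeR) and *ins-29* (3.57, adjusted p = 0.0225, edgeR).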

How the results depend on the processing

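Counts of members higher or lower stayed within 1.5 times in 379 comparisons of a count with its alternative and moved further in 57. With the limit applied to the libraries of neither group, an alternative chosen after seeing the data, 5 members were higher and 0 lower with auxin in the somatic degron strain. The 57 exceptions follow, as the value under each alternative, and their cause was not tested beyond what the setting itself removes. For auxin against ethanol in the somatic degron strain (7 higher, 0 lower), spike-in sizes gave 4 and 9, only the groups compared with W1 gave 3 higher, the likelihood ratio test and only the groups compared without W1 (also chosen after seeing the data) gave 1 lower, TMM and upper quartile without W1 gave 2 lower, and leaving out replicates gave 3 to 8 higher and 0 to 1 lower. With spike-in sizes *ins-1* (-1.26), *ins-17* (-0.82) and *ins-30* (-1.93) turned to lower. In the interaction (2 higher, 0 lower), spike-in sizes gave 0 and 5, only the groups compared with W1 gave 1 higher, TMM and upper quartile without W1 gave 1 lower, and leaving out replicates gave 0 to 3 higher and 0 to 1 lower. With time in the somatic degron strain (2 higher, 5 lower), DESeq2, no filter, upper quartile without W1 and only the groups compared with W1 gave 1 higher, only the groups compared without W1 and the limit of 50 counts gave 0 higher, spike-in sizes gave 1 lower, and leaving out replicates gave 0 to 2 higher and 3 to 6 lower. In the germline degron strain (1 higher, 8 lower), only the groups compared with W1 and the limit of 50 counts gave 0 higher, spike-in sizes gave 1 lower, and leaving out replicates gave 1 to 2 higher. In the somatic TIR1 strain (2 higher, 12 lower), only the groups compared with W1 gave 0 and 6, with *ins-24* turned to 1.99 (adjusted p = 0.570, edgeR), spike-in sizes gave 5 and 3, the limit of 50 counts gave 0 higher, and leaving out replicates gave 0 to 2 higher. In the germline TIR1 strain (4 higher, 7 lower), the limit of 50 counts gave 0 higher, spike-in sizes gave 3 lower, and leaving out replicates gave 2 to 4 higher and 3 to 7 lower. For 132 h with auxin against 36 h (8 higher, 6 lower), the limit of 50 counts gave 2 higher, only the groups compared with W1 gave 1 lower, and leaving out replicates gave 3 to 7 lower. With the replicate block, members higher with time in the somatic degron strain were 1, *ins-13* with auxin was lost and *ins-17* gained, *ins-20* with time was gained in the germline degron strain, and no other named call changed. As a check of the pairing, deviations from group means correlated at a mean of 0.049 between libraries with the same number and -0.0162 between others, and 43 of 48 libraries were closer to their own number. Of the single-gene values, 2945 kept direction and call, 197 lost the call, 39 gained it and 4 turned sign. Members with few counts limit the calls, since 3 counts are up to 0.521 CPM.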
